A study of Mus musculus with 38 samples.

Results

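Osteoprogenitors sorted from the bone lining of mice with myeloma were compared with those of healthy mice, which gave 8 of the 38 RNA-Seq libraries of the series. The 8 were chosen by their labels alone, as the osteoprogenitor libraries of myeloma-bearing mice (D, G, I and J) and of healthy mice (L, M, N and O), and genes above 1 RPKM (reads scaled to transcript length and library depth) in at least 4 of the 8 were compared. All mice were C57Bl/KaLwRijHsd, a substrain of the mice in which the 5T myelomas arose, and were 8 to 10 weeks old at inoculation. Myeloma-bearing mice had received 1000000 5TGM1-GFP cells through a vein, which are murine myeloma cells labelled with a green fluorescent protein, and healthy mice the PBS vehicle alone, and neither group had a further treatment before the cells were collected on day 23. Each library came from 100 cells gated as CD45-, Ter119-, CD31-, ALCAM+ and Sca1-, released with collagenase from crushed femora and tibiae whose marrow had been flushed out. The letter in each library code names the replicate here, and the labels do not say that a letter is 1 mouse, so p-values measure the spread between these libraries.

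Osteoprogenitors are the committed cells of the skeletal lineage that line bone surfaces and give rise to osteoblasts, which lay down the collagen I and osteocalcin rich matrix of bone. The same lineage also steers bone resorption, since it makes RANKL, the ligand that drives the formation of osteoclasts, and osteoprotegerin, the decoy receptor that blocks that ligand. In myeloma, osteoclast activity is raised and bone formation is suppressed, and inhibitors of Wnt signalling such as DKK1 and sclerostin have been linked to this suppression. The comparison asks which genes of these cells differ when myeloma cells infiltrate the marrow next to them, and the cells were taken while infiltration was still early.

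The labelled cell type was checked against its markers. Bglap, which encodes osteocalcin, lay at 6211 to 45659 RPKM in healthy and 23958 to 54769 RPKM in myeloma-bearing mice, against a mean of 50.6 ± 26.1 RPKM (SD, n = 5) in healthy stromal progenitors. Sp7, the osteoblast transcription factor osterix, was read in all 8 libraries (1.51 to 30.6 RPKM), and so was Dkk1 (2.34 to 69.4 RPKM), while their means in healthy stromal progenitors were 0.146 and 0.004 RPKM. Ly6a, which encodes the Sca1 antigen of the negative gate, was at 0.986 to 95.2 RPKM against 792 to 1933 RPKM in healthy stromal progenitors. The genes of the gated antigens CD45 and CD31 and of a macrophage receptor were low. Ptprc, which encodes CD45, was at most 0.0522 RPKM, Pecam1, which encodes CD31, at most 2.19 RPKM, and the macrophage receptor gene Csf1r at most 0.421 RPKM. Summed over the 11 genes in the table, plasma and myeloma cell markers reached 11.4 to 44.0 RPKM in healthy and 8.66 to 21.1 RPKM in myeloma-bearing mice, and the 13 endothelial markers 8.95 to 25.8 and 7.82 to 39.8 RPKM. The 11 macrophage and osteoclast markers summed to 192 to 409 RPKM in healthy and 124 to 419.8 RPKM in myeloma-bearing mice, the 7 neutrophil markers to 16.5 to 74.6 and 8.32 to 25.6 RPKM, and the 3 erythroid markers to 0 and 0 to 14.3 RPKM. Of the macrophage and osteoclast list, Ctsk, the cathepsin K gene, was at 182 to 361 RPKM in healthy and 120.2 to 235 RPKM in myeloma-bearing mice, and Cd68 at 9.43 to 40.5 and 2.31 to 119.7 RPKM. Lyz2, a macrophage gene, was at 179 RPKM in library G and at most 0.231 RPKM in the other 7.

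The gate also held cartilage transcripts. Each of the 11 chondrocyte genes in the table passed the filter, and their summed level was 12410 to 16350 RPKM in healthy and 10060 to 19140 RPKM in myeloma-bearing mice. Col2a1, the collagen of cartilage, was at 2867, 1465, 1064 and 1481 RPKM in L, M, N and O, and at 1883, 1536, 3989 and 2243 RPKM in D, G, I and J. The 2 groups overlapped over most of their range. Of the 11 genes, 0 had an unadjusted p below 0.05 in either direction, and their median log2 fold change was 0.12. Col2a1 itself differed by 0.49 on the log2 scale (limma adjusted p = 0.981). Voom-limma on the reads of all 38 libraries gave 1.47 and called it (adjusted p = 0.00033), while limma over all 38 did not. Voom-limma on the 8 libraries called 0 of 8664 genes, and the cause of the gap between the fits was not tested. These are bulk libraries, so fewer cells of a type and less RNA per cell cannot be told apart.

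The libraries held 11991647 to 21789966 reads on genes, and 9311 to 11125 of the 13260 genes in the table had at least 1 read. Neither total reads (exact permutation test of 4 against 4 libraries, 70 splits, two-sided p = 0.8) nor the number of genes with a read (p = 0.657) separated the groups, and 0.0286 is the smallest p that 4 against 4 can give. Many genes were all or none. Of the 8664 genes tested, 3509 (40.5%) had at most 3 reads in 1 library and over 100 in another library of the same group, and this spread within groups is part of every standard error given here.

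Between myeloma-bearing and healthy mice, 1 of 8664 genes (0.0115%) was called by limma on log2(RPKM + 1), where a call asked for a log2 fold change of more than 1 in either direction and for a p below 0.1 after Benjamini-Hochberg adjustment. That gene was Ifi27l2a, an interferon-inducible gene, and it rose. At an unadjusted p below 0.05 there were 185 higher genes (2.14%) and 237 lower genes (2.74%), 4.87% in all, and 116 genes (1.34%) were higher and 114 (1.32%) lower with no overlap between the 4 libraries of each group. The median log2 fold change over all genes tested was -0.03, and 48.4% of them were above 0. The shares of 2.14% and 2.74% are the background of each count of list members at an unadjusted p below 0.05, and with few members such a count can turn on 1 library. All other genes are therefore given by their values, as genes that did not pass the adjusted threshold of this fit, with the limma standard error (SE) beside each log2 fold change. Of the 20 lists of genes in the plot of list medians, those of interferon genes had the highest medians. The rank of the interferon sensors and factors turned on single libraries. Without healthy O their median was 0.60, against 0.69 for bone matrix genes, and without library I it was 0.52, against 0.53 for chemokine and inflammatory genes.

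**Figure D1:**
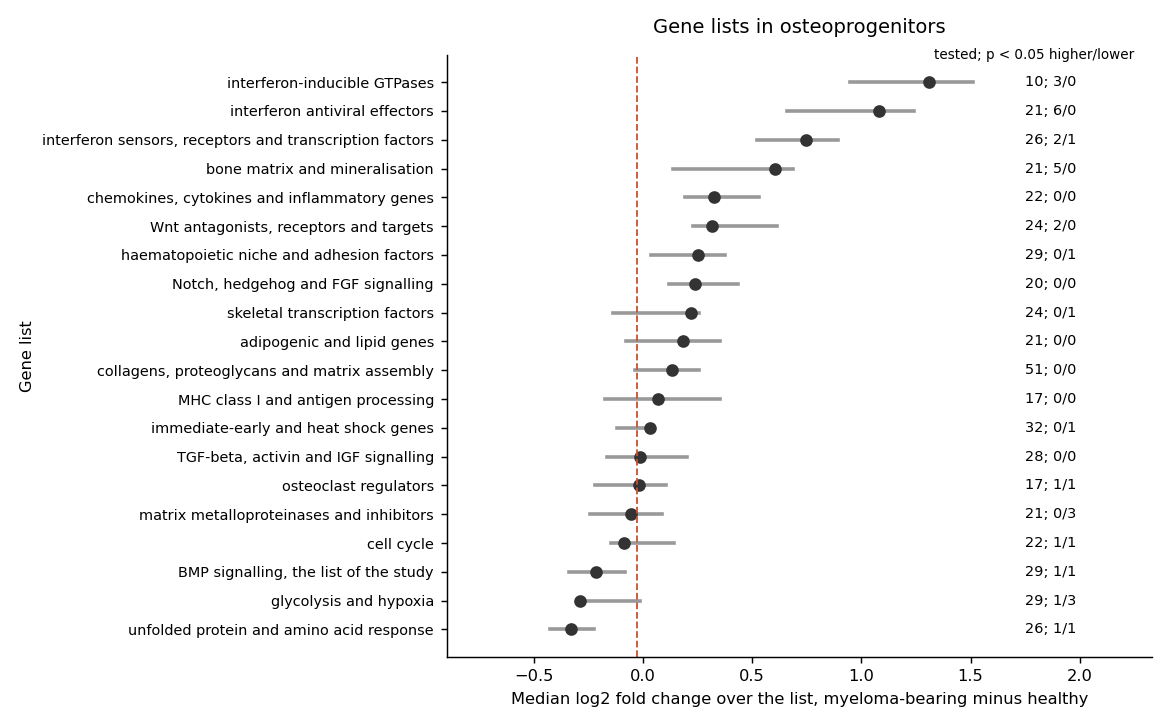
Median log2 fold change (x axis, log2(RPKM + 1), myeloma-bearing minus healthy) of each of 20 gene lists (y axis). Points are medians over the members tested, grey lines span the medians with each library left out in turn, the dashed line is the median of all 8664 genes tested (-0.03), and the figures at the right give the members tested and those with an unadjusted p below 0.05, higher/lower. The 3 interferon lists lie at 0.75 to 1.31, and the other lists between -0.33 and 0.61.

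Interferons act on neighbouring cells through receptors and STAT and IRF transcription factors, which bind short elements before the start of their target genes, among them the ISRE and the GAS element. The windows from 250 bases before to 50 after each gene start (RefSeq, GRCm38.p6) were searched over the 250 bases before the start for an ISRE core, GAAANNGAAA or its reverse complement TTTCNNTTTC, and for a GAS element, TTCNNNGAA, which reads the same on both strands. Of 27025 genes with a window, 3.46% held the ISRE core and 8.13% the GAS element. Of the genes tested here, 6515 had a window, and the shares were 2.96% and 6.82%. Among members of the interferon lists tested here, 47 of 57 had a window, of which 14 (29.8%) held the ISRE core and 13 (27.7%) the GAS element. Of the 8 interferon-inducible GTPases with a window, 7 held the ISRE core. The lists were made of interferon-inducible genes, so these shares are no independent evidence of a response. Of the 11 list members with an unadjusted p below 0.05 that were higher in myeloma-bearing mice, 9 had a window, and 4 of these, Bst2, Irgm2, Igtp and Irf2, held both. The 150 bases before the start are shown for the 3 of these whose core lies within them, with the ISRE core in capitals, to set the element beside the values that follow.
Bst2: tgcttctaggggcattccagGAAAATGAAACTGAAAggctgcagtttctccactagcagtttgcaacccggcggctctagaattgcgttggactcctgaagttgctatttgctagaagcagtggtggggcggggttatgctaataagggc
Irgm2: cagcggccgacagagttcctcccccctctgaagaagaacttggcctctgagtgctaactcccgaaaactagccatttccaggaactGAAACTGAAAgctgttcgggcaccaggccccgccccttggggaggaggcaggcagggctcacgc
Igtp: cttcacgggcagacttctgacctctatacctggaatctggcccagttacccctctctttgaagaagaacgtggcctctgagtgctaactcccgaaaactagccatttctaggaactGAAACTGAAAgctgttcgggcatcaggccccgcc
The Bst2 stretch (chr8:71537473-71537622, minus strand) holds 2 overlapping cores in a run of 16 bases that opens 130 bases before the start, and a GAS element that begins 136 bases before it and overlaps the first core. The Irgm2 stretch (chr11:58214827-58214976, plus strand) and the Igtp stretch (chr11:58199406-58199555, plus strand) hold 1 core each, 64 and 34 bases before the start, within 29 bases that are identical in both. No ISRE core lies in the windows of Plac8, Ifi47, Ifitm3, Ddx58 and Zc3hav1 before their starts. Ifi27l2a and Rtp4 had no window. A match is a run of letters and says nothing of a factor bound there.

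Ifi27l2a (chr12:103442167-103443680, minus strand, GRCm38) encodes a small hydrophobic protein induced by interferon. It was at 109, 229, 37.6 and 59.7 RPKM in D, G, I and J, and at 0, 0.342, 0 and 0 RPKM in L, M, N and O. All 4 libraries of myeloma-bearing mice held it, with 511, 1949, 277 and 339 reads, and a single healthy library did, with 2 reads. Its log2 fold change was 6.35 (SE 0.84, limma adjusted p = 0.018, higher in 4 of 4 libraries), and since the healthy level is at or near 0 the gene passed the filter through the 4 myeloma-bearing libraries alone and this value depends on the pseudocount (9.22 with 0.1). The gene lost its call in voom-limma on the reads of the 8 libraries (adjusted p = 0.887), with no filter (adjusted p = 0.101), without library G (adjusted p = 0.313), the library with the Lyz2 reads and the most Ifi27l2a reads, and without library J (adjusted p = 0.131), at log2 fold changes of 5.89 and 6.53. Over all its alternatives the adjusted p ran from 0.00152 to 0.887.

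Of 42 interferon antiviral effectors, 39 were in the table and 21 passed the filter, of which 6 had an unadjusted p below 0.05 and were higher (28.6%, against 2.14% of all genes), and 0 were lower. Their median log2 fold change was 1.08, against -0.03 over all genes. The paper reported raised interferon response sets in these cells, and the lists were chosen with earlier results of these data known. Counts over the interferon lists are thus no independent evidence of a direction. Plac8, which encodes a small cysteine-rich protein, was at 59, 181, 83.5 and 37.5 RPKM in D, G, I and J, and at 29.4, 0, 7.81 and 0 RPKM in L, M, N and O, a log2 fold change of 4.25 (SE 1.04, limma adjusted p = 0.862). Its lowest myeloma-bearing library lay above its highest healthy library, and 2 healthy libraries had no read. Bst2, which encodes tetherin, a membrane protein that holds budding viruses to the cell, was at 73.2, 437, 103 and 77.2 RPKM and at 34.3, 30.8, 29.6 and 23.3 RPKM in the same order of libraries. Here every library was well read and the groups did not overlap, at a log2 fold change of 2.08 (SE 0.58, adjusted p = 0.862), with library G far above D, I and J. Ifitm3, which blocks the entry of viruses through endosomes, was at 1484, 2294, 1040.2 and 1306 RPKM and 774, 1077, 559 and 534 RPKM, a log2 fold change of 1.05 (SE 0.34), and overlapped only between healthy M and myeloma-bearing I. Rtp4 spanned 23.1 to 173 RPKM against 0.453 to 38.9 RPKM, and Zc3hav1, which encodes the zinc finger antiviral protein, 2.94 to 7.86 against 0 to 3.3 RPKM, and both overlapped through healthy L. The list also held Isg20, an exonuclease gene, at a log2 fold change of -1.07 (SE 1.14).

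Of the interferon-inducible GTPases, which coat and break the vacuoles of intracellular pathogens, 10 of the 15 in the table passed the filter. Of these 3 had an unadjusted p below 0.05 and were higher (2.14% of all genes were), 0 were lower, and the median log2 fold change was 1.31. The 3 became 0 without healthy M and 1 without library G or J, while the median stayed between 0.95 and 1.51 with single libraries left out. Ifi47 was at 47.8, 59.2, 36.4 and 54.6 RPKM in myeloma-bearing D, G, I and J, and at 25.3, 0.0787, 12.1 and 23.5 RPKM in healthy L, M, N and O. The groups did not overlap (log2 fold change 2.35, SE 0.91), and healthy M set most of the spread. Irgm2, whose promoter stretch is shown above, was at 29, 17.5, 27.8 and 15.4 RPKM and 10.1, 4.75, 11.9 and 0.124 RPKM, also with no overlap (log2 fold change 2.04, SE 0.90). Igtp, its neighbour with the like promoter stretch, was at 2.24, 48.4, 37.7 and 32.8 RPKM and 0.464, 0, 0.061 and 40.7 RPKM. Library D was low in its group and healthy O high in the other, so these groups overlapped (log2 fold change 2.92, SE 1.30). Igtp and Irgm2 overlap on the same strand in the annotation (GENCODE vM21), and how shared reads were assigned between them was not tested.

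**Figure D2:**
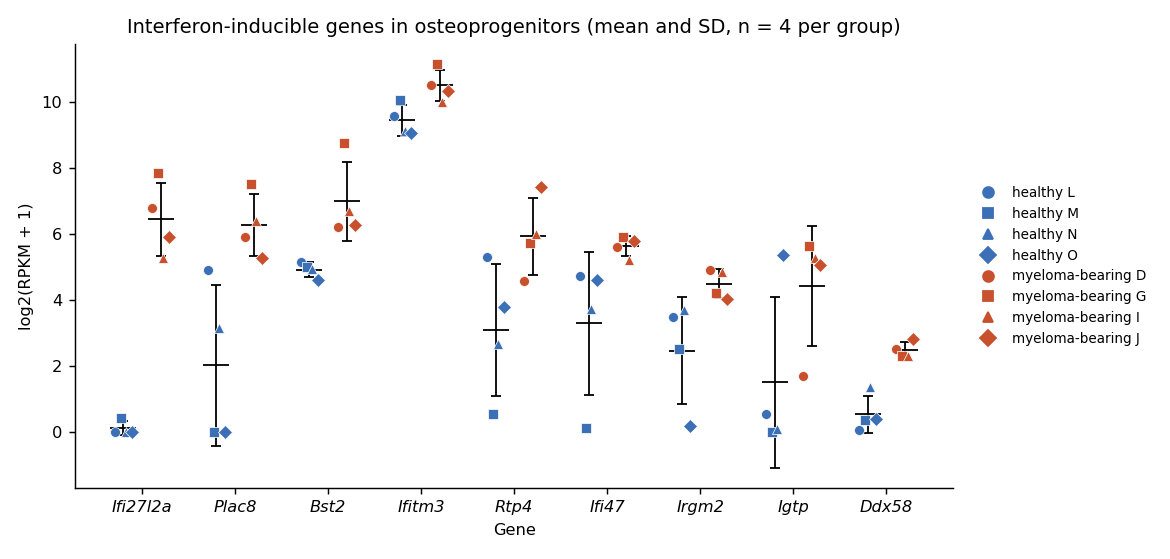
Levels of 9 interferon-inducible genes (x axis) on log2(RPKM + 1) (y axis) in the 4 healthy (blue) and 4 myeloma-bearing (red) osteoprogenitor libraries. Points are libraries, and black bars are the mean and SD (n = 4). Ifi27l2a, Plac8, Bst2, Ifi47, Irgm2 and Ddx58 do not overlap between the groups, and Ifitm3, Rtp4 and Igtp do.

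The genes that sense nucleic acids and relay interferon signals had a lower median, 0.75 over 26 members, of which 2 were higher and 1 lower at an unadjusted p below 0.05. Ddx58, which encodes the RNA sensor RIG-I, was at 4.73, 3.94, 3.95 and 5.97 RPKM in D, G, I and J, and at 0.0317, 0.272, 1.54 and 0.308 RPKM in L, M, N and O. The 4 myeloma-bearing values lay within a narrow band above all healthy values (log2 fold change 1.95, SE 0.71). Irf2, which binds the same element as the other IRF factors, was at 13.7, 11.3, 0 and 3.94 RPKM and 0, 0, 1.39 and 0 RPKM, and had no read in 3 healthy libraries and in library I. Irf3, the factor activated downstream of RIG-I, was the lower member (0, 2.83, 0.172 and 1.79 RPKM against 23, 1.66, 14.8 and 3.8 RPKM). Irf7, the amplifier of the type I interferon response, was at 0, 22.4, 24.1 and 15.9 RPKM and 4.89, 0, 8.5 and 0.205 RPKM, high in G, I and J and with no read in D (log2 fold change 1.80, SE 1.21). Irf1 spanned 42.1 to 102 and 14.6 to 82.9 RPKM. Ifih1, which encodes the sensor MDA5, was read above 1 RPKM in 1 myeloma-bearing library, G (0 to 12.8 RPKM, against 0.473 to 16.1 RPKM in healthy mice).

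Genes of class I antigen presentation, many of which interferon also induces, had a median near that of all genes. Of 17 members tested, 0 had an unadjusted p below 0.05 and the median log2 fold change was 0.07. B2m, the light chain of MHC class I, was at 19031, 11908, 8548 and 11925 RPKM in D, G, I and J, and at 8576, 7273, 6587 and 12936 RPKM in L, M, N and O (log2 fold change 0.53, SE 0.30). The heavy chain genes H2-K1 and H2-D1 differed by 0.45 (SE 0.31) and 0.31 (SE 0.31). Psmb10, a subunit of the immunoproteasome, had a log2 fold change of -1.69 (SE 0.93). None of these differences passed the adjusted threshold, and the groups overlapped for all 4 genes.

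Library G had the highest Ifi27l2a, Plac8, Bst2 and Ifitm3 of the 8. Without it the median log2 fold change was 0.66 for the antiviral effectors, 1.02 for the GTPases and 0.60 for the sensors and factors, against -0.06 over all genes, and 6, 1 and 1 members were higher and 0, 0 and 2 lower at an unadjusted p below 0.05. Over all 8664 genes 141 were then higher and 290 lower. The mean log2(RPKM + 1) over the 21 antiviral effectors was 3.52, 5.30, 4.17 and 4.50 in D, G, I and J and 3.40, 2.79, 3.48 and 3.08 in L, M, N and O. Library D thus lay just above the healthy libraries and the other 3 further above them. The part of the Lyz2 reads of library G in these values was not tested.

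Genes of the mineralised matrix were read at high levels in every library. Of 26 genes of bone matrix and mineralisation, 21 were tested, 5 had an unadjusted p below 0.05 and were higher (2.14% of all genes were), 0 were lower, and the median log2 fold change was 0.61. Bglap was at 54769, 29189, 35374 and 23958 RPKM in D, G, I and J, and at 13983, 6211, 15756 and 45659 RPKM in L, M, N and O, a log2 fold change of 1.11 (SE 0.46, limma adjusted p = 0.981). Healthy O, at 45659 RPKM, lay above 3 of the 4 myeloma-bearing libraries, and L, M and N below all 4. Bglap2, a near-identical copy of Bglap beside it on chromosome 3, had the same order (11454, 6290.1, 8609 and 4909 against 3377, 1481, 3409.6 and 9802 RPKM), and reads that the 2 share make the split between them uncertain. Col1a1 and Col1a2, the chains of collagen I, had log2 fold changes of 0.79 (SE 0.36) and 1.05 (SE 0.38). Col1a2 was at 9969, 8655, 7855 and 4312 RPKM and 3358, 1911, 3485 and 7099 RPKM, again with healthy O above myeloma-bearing J. Sparc, which encodes the matrix protein osteonectin, was the member of the 5 whose groups did not overlap, at 11300.1, 13031, 14351 and 9909 RPKM and 8077, 5858, 8785 and 9164 RPKM (log2 fold change 0.61, SE 0.24).

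Other genes of the same programme did not share this order. Spp1, which encodes osteopontin, was at 8836, 8402, 5577 and 5985 RPKM in D, G, I and J, and at 10383, 6506, 25882 and 5136 RPKM in L, M, N and O (log2 fold change -0.46, SE 0.41), with healthy N highest. Alpl, the alkaline phosphatase needed for mineralisation, was at 102, 228, 335 and 131 RPKM and 92.9, 52.4, 302 and 124 RPKM (log2 fold change 0.62, SE 0.54). Enpp1, which makes the mineralisation inhibitor pyrophosphate, spanned 31.3 to 64.7 and 54.1 to 138 RPKM (log2 fold change -0.85, SE 0.48). The list as a whole moved with single libraries. Without healthy M its median was 0.14 and 0 members had an unadjusted p below 0.05, and without healthy O it was 0.69 with 5 such members, and 6 members then were higher with no overlap between the groups. Over all 8664 genes without O, 212 were higher at an unadjusted p below 0.05 and 255 were higher with no overlap, and without M 176 were higher at that p. The 10 osteoprogenitor markers, which include Bglap, Col1a1 and Alpl, had a median of 0.70 with every library, 9 of them above 0. Of these 10, 2 were higher at an unadjusted p below 0.05 (2.14% of all genes were). Their mean log2(RPKM + 1) was 5.18 in healthy M and 6.72 in healthy O.

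**Figure D3:**
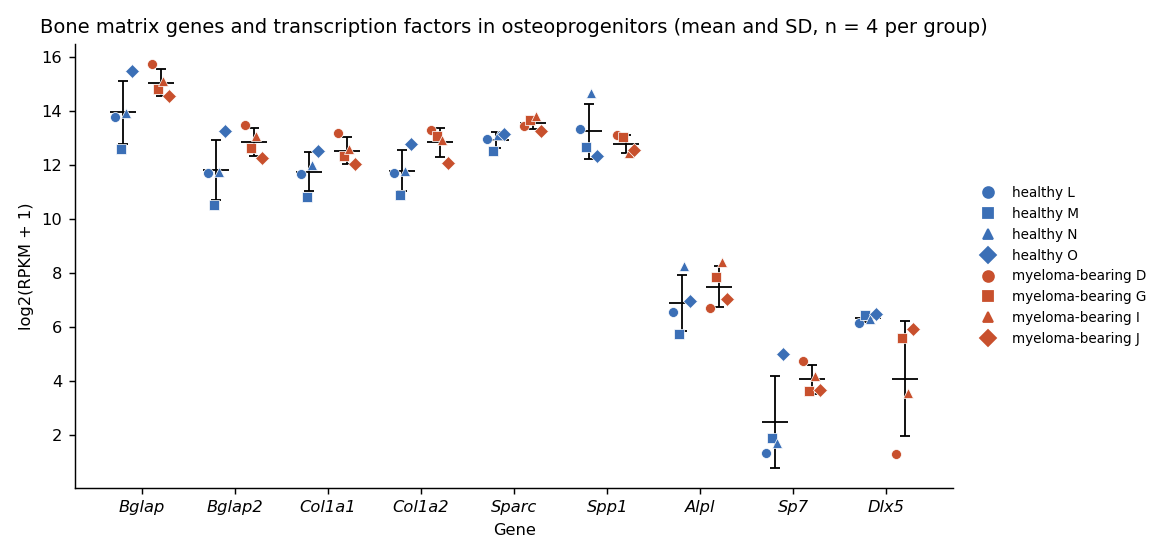
Levels of 7 bone matrix genes and of the transcription factor genes Sp7 and Dlx5 (x axis) on log2(RPKM + 1) (y axis) in the 4 healthy (blue) and 4 myeloma-bearing (red) libraries. Points are libraries, and black bars are the mean and SD (n = 4). Healthy O (blue diamond) lies within or above the red points for Bglap, Bglap2, Col1a1, Col1a2 and Sp7, and Dlx5 is below every healthy library in all 4 red points.

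Of 24 skeletal transcription factor genes tested, 0 were higher and 1 was lower at an unadjusted p below 0.05, and the median log2 fold change was 0.22 (-0.14 without healthy N). The lower one was Dlx5, a homeobox factor upstream of osteoblast genes, at 1.4, 47.1, 10.7 and 59 RPKM in D, G, I and J, and at 70, 86.2, 77.1 and 87.7 RPKM in L, M, N and O. The healthy libraries agreed closely and D and I lay far below them, so the groups did not overlap (log2 fold change -2.26, SE 0.84, limma adjusted p = 0.981). Sp7 was at 25.7, 11.2, 17.2 and 11.7 RPKM and 1.51, 2.67, 2.22 and 30.6 RPKM (log2 fold change 1.58, SE 0.95), where healthy O exceeded every other library and L, M and N were the lowest. Runx2, the factor that commits cells to the osteoblast lineage, differed by 0.36 (SE 0.67), and Sox9, the factor of the chondrocyte lineage, by -0.14 (SE 0.35). Alcam, whose product defined the gate, was at 2.94, 8.07, 19.2 and 10.8 RPKM and 1.97, 2.17, 8.02 and 7.39 RPKM (log2 fold change 0.89, SE 0.92), and the cadherin gene Cdh2 differed by 0.51 (SE 0.85).

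Genes that regulate osteoclasts lay in both directions, with 1 higher and 1 lower of 17 tested at an unadjusted p below 0.05 and a median log2 fold change of -0.02. Tnfsf11 (chr14:78277445-78308043, minus strand, GRCm38), which encodes RANKL, was at 27, 33, 5.88 and 19.7 RPKM in D, G, I and J, with 611, 1357, 209 and 539 reads. In healthy L, M, N and O it was at 6.45, 0, 3.65 and 0 RPKM, with 184, 0, 132 and 0 reads. Library I lay just under healthy L, and the other 3 lay above all healthy libraries (log2 fold change 2.98, SE 1.00, limma adjusted p = 0.981). In the fit of all 38 libraries, which shares its estimate of the spread with the other cell types, Tnfsf11 passed the threshold (adjusted p = 0.0852), and in voom-limma on the reads of all 38 it did not (adjusted p = 0.163). Tnfrsf11b, which encodes osteoprotegerin, was at 78.3, 107, 220.0 and 123 RPKM and 246, 377, 161 and 165 RPKM (log2 fold change -0.86, SE 0.43).

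The balance of the pair was taken as the log2 ratio of Tnfsf11 to Tnfrsf11b, each with 1 RPKM added. It was -1.50, -1.67, -5.01 and -2.59 in D, G, I and J, and -5.05, -8.56, -5.12 and -7.38 in L, M, N and O. Every myeloma-bearing library lay above every healthy one, library I by a small margin. The means were -2.69 ± 1.62 and -6.53 ± 1.73 (SD, n = 4 each), a difference of 3.84 (exact permutation test, two-sided p = 0.0286, the smallest p that 4 against 4 libraries can give). Tnfsf11 had 0 reads in healthy M and O, so their ratios rest on the added RPKM and on Tnfrsf11b, and the size of the difference depends on it (5.54 with 0.1 RPKM added, p = 0.0286 by the same exact test). Of the difference of 3.84, 2.98 is the log2 fold change of Tnfsf11, and that of Tnfrsf11b was -0.86. Il11, a cytokine gene of the same list, was at 0.0508, 0, 2.33 and 0.0839 RPKM and 11.2, 33.1, 1.52 and 13.8 RPKM, with 48 reads or more in each healthy library and 2 reads or fewer in D, G and J (log2 fold change -3.00, SE 0.97). Pthlh, which encodes the parathyroid hormone related protein that induces RANKL, differed by -1.59 (SE 1.03).

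Among 21 matrix metalloproteinases, their inhibitors and related proteases, 0 were higher and 3 were lower at an unadjusted p below 0.05 (2.74% of all genes were lower), and the median log2 fold change was -0.05. With single libraries left out the median ran from -0.24 without N to 0.09 without J, and the 3 lower members became 1 without either. Mmp3 (chr9:7445822-7455975, plus strand, GRCm38), the proteoglycan-degrading protease stromelysin 1, was at 109, 22, 20 and 20.5 RPKM in D, G, I and J, and at 133, 704, 354 and 335 RPKM in L, M, N and O. Library D, the highest of its group, lay below the lowest healthy library. The log2 fold change was -3.31 (SE 0.61, limma adjusted p = 0.273, lower in 4 of 4 libraries), and it passed the threshold with array weights (adjusted p = 0.0245), in the fit of all 38 libraries (0.0852) and without library D (0.0404), over a range of 0.0245 to 0.996. Timp1, an inhibitor of these enzymes, was at 679.9, 750.3, 664 and 345 RPKM and 2047, 827, 1064 and 656 RPKM (log2 fold change -0.83, SE 0.39). Serpine2, which encodes a serine protease inhibitor, spanned 1446 to 2295 and 2229 to 3222 RPKM (log2 fold change -0.59, SE 0.27). Mmp13, the collagenase of cartilage and bone, had a value of 1.41 (SE 1.30), which turned to -0.46 without healthy O, the library where it was at 0.61 RPKM.

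**Figure D4:**
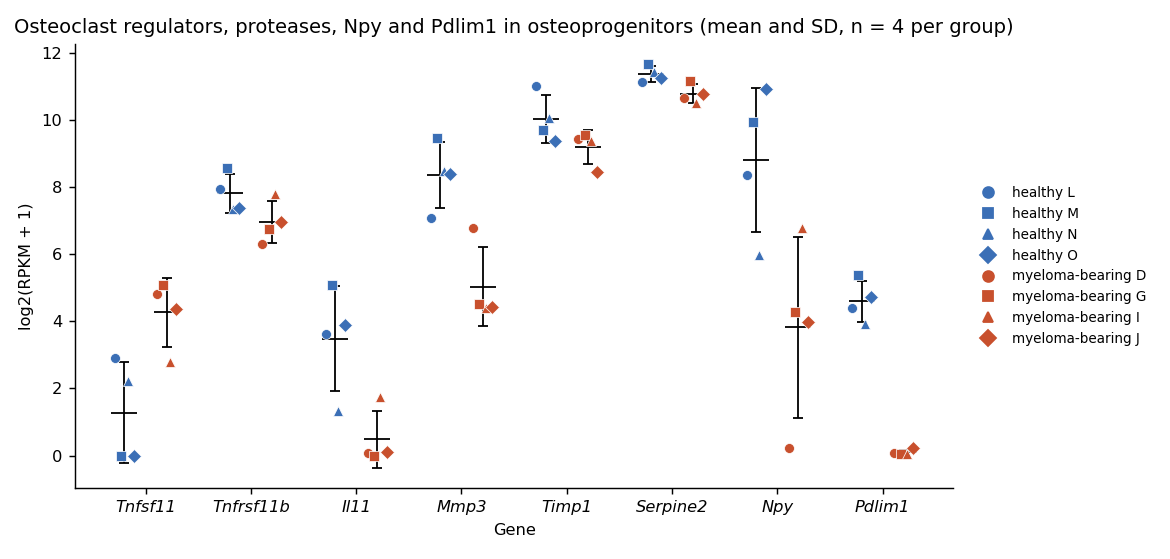
Levels of the osteoclast regulators Tnfsf11, Tnfrsf11b and Il11, of Mmp3, Timp1 and Serpine2, and of Npy and Pdlim1 (x axis) on log2(RPKM + 1) (y axis) in the 4 healthy (blue) and 4 myeloma-bearing (red) libraries. Points are libraries, and black bars are the mean and SD (n = 4). Mmp3 and Pdlim1 do not overlap between the groups, and the other 6 genes do.

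Bone morphogenetic protein (BMP) signalling was followed through 42 genes of the list of the study, of which 29 were tested, and its other members were not analysed here. At an unadjusted p below 0.05 there was 1 higher gene, Tnfsf11, and 1 lower gene, Bmp6, against 2.14% and 2.74% of all genes, and the median log2 fold change was -0.22. The 1 lower gene became 3 without library I, where 218 of all 8664 genes were lower, and 0 without D, M or N. The median ran from -0.34 to -0.08 with single libraries left out. The list is the study's own, so its counts are no independent evidence of a direction. Of the ligands, Bmp6 was at 0.45, 26.7, 2.06 and 20.7 RPKM in D, G, I and J, and at 41.1, 39.4, 21.8 and 20.6 RPKM in L, M, N and O, low in D and I and otherwise within the healthy range (log2 fold change -2.07, SE 0.95). Bmp4 differed by 0.63 (SE 0.64) and Bmp7 by 1.24 (SE 1.03). Of the receptors, Bmpr1a was at 8.59, 18.9, 51.2 and 7.47 RPKM and 52.6, 9.09, 35.8 and 11.4 RPKM (log2 fold change -0.39, SE 0.80), and Acvr1 differed by -0.52 (SE 0.85). Bmpr2, the type II receptor gene, was below the filter, with 0, 29, 0 and 0 reads in D, G, I and J, and 511, 395, 292 and 0 in L, M, N and O. The targets Id1, Id2 and Id3, which encode inhibitors of helix-loop-helix factors, had log2 fold changes of 0.16 (SE 0.40), -0.09 (SE 0.28) and 0.10 (SE 0.28). The inhibitory Smads Smad6 and Smad7 had values of 1.12 (SE 0.96) and -0.22 (SE 1.03). The directions for the Id genes, Smad7 and Bmpr1a turned with single libraries left out.

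Of 24 genes of Wnt antagonists, receptors and targets, 2 were higher and 0 lower at an unadjusted p below 0.05, against 2.14% and 2.74% of all genes, and the median log2 fold change was 0.32. The 2 became 0 without library G or M, 1 without I, L, N or O and 3 without J, where 165 of all 8664 genes were higher. The median was 0.61 without D and 0.55 without L. The 2 genes were Nkd2, a feedback inhibitor of Wnt signalling, at 18.8, 19.8, 5.74 and 2.43 RPKM in D, G, I and J and 2.92, 0, 1.78 and 0 RPKM in L, M, N and O, and Sfrp1, a secreted Wnt antagonist, at 0.0226, 16.6, 37.5 and 5.19 and 0, 0, 0.537 and 2.13 RPKM. Both overlapped between the groups. Dkk1, the antagonist that marks these cells, was at 69.4, 16.8, 9.78 and 16.4 RPKM and 40.8, 2.34, 23.4 and 46 RPKM (log2 fold change 0.14, SE 0.90), and the groups overlapped, with the direction turned without library D or M and in both voom-limma fits. Wif1, an abundant antagonist here, differed by 0.34 (SE 0.32), and Ctnnb1, which encodes beta-catenin, by 0.69 (SE 0.36). Sost, the sclerostin gene of osteocytes, was not analysed here.

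Npy (chr6:49822710-49829507, plus strand, GRCm38), the neuropeptide Y gene and the 1 member of 29 niche and adhesion factor genes with an unadjusted p below 0.05, was at 0.181, 18.6, 109 and 14.7 RPKM in D, G, I and J, and at 326, 972, 62.2 and 1937 RPKM in L, M, N and O. The levels differed widely within each group, and library I lay above healthy N (log2 fold change -4.98, SE 1.18, limma adjusted p = 0.862). Over the alternatives its adjusted p ran from 0.00153, in the fit of all 38 libraries, to 0.996. In healthy stromal progenitors its mean was 2692 ± 1180 RPKM (SD, n = 5), above all 8 osteoprogenitor libraries.

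The glycolysis and hypoxia list and the unfolded protein list had medians below that of all genes. Of 29 glycolysis and hypoxia genes, 1 was higher and 3 were lower at an unadjusted p below 0.05, against 2.14% and 2.74% of all genes, and the median log2 fold change was -0.29. Without library D, 0 were higher and 1 lower and the median was -0.01, with 14 of 29 members above 0. Slc2a1, the glucose transporter GLUT1, was at 5.52, 28.7, 20.2 and 60 RPKM in D, G, I and J, and at 106, 54, 92.3 and 58.7 RPKM in L, M, N and O (log2 fold change -1.76, SE 0.66), and overlapped through library J alone. Aldoa, a glycolytic aldolase, was at 113, 148, 115 and 167 RPKM and 144, 243, 296 and 341 RPKM (log2 fold change -0.86, SE 0.38). Ankrd37, a target of the hypoxia factor HIF, differed by -2.12 (SE 0.89), and Epas1, which encodes HIF-2 alpha, was the higher gene at 1.69 (SE 0.79). Of 26 genes of the unfolded protein and amino acid response, 1 was higher and 1 lower, with the lowest median of the 20 lists plotted, -0.33. Without healthy O this median was -0.24, and that of the BMP list was -0.30. The 1 lower gene of the unfolded protein list became 5 without library J and 0 without I or M. Over all 8664 genes, 335 were lower without J, against 237 with every library. Hspa5, the chaperone BiP, was at 565, 478, 695 and 728 RPKM and 782, 836, 919.7 and 787 RPKM, with no overlap (log2 fold change -0.45, SE 0.28), while its partner Dnajb11 lay higher in all 4 libraries (log2 fold change 1.52, SE 0.66). Asns, the asparagine synthetase gene, was at 0.256, 0.0564, 0.196 and 29.6 RPKM and 57.7, 54, 19.7 and 2.77 RPKM. Hmox1, the haem oxygenase gene, was the 1 lower member of 32 immediate-early and heat shock genes, whose median was 0.03, at 0, 89.1, 9.73 and 65.3 RPKM and 157, 58.7, 172 and 90 RPKM, with library D lowest.

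Cell cycle genes showed no common direction. Of 50 on the list 22 passed the filter, 1 was higher and 1 lower at an unadjusted p below 0.05, and the median log2 fold change was -0.09. Mcm7, a subunit of the replicative helicase, was at 10.7, 2.59, 18.4 and 2.65 RPKM in D, G, I and J, and at 0.229, 0, 0 and 1.04 RPKM in L, M, N and O, with no overlap (log2 fold change 2.55, SE 0.82), though genes on the other strand overlap this locus and the counting did not use strand, so their reads cannot be told apart. Tyms, the thymidylate synthase gene, was at 0.0518, 1.64, 0.033 and 0.685 RPKM and 14.7, 0, 10.5 and 8.43 RPKM. In 5 further lists, counts were at or under those over all genes, with 0 of 22 chemokine, cytokine and inflammatory genes (median 0.32), 0 of 51 collagen, proteoglycan and matrix assembly genes (0.13), 0 of 28 genes of TGF-beta, activin and IGF signalling (-0.01), 0 of 20 of Notch, hedgehog and FGF signalling (0.24), and 0 of 21 adipogenic and lipid genes (0.19) at an unadjusted p below 0.05. Col13a1, a transmembrane collagen gene, was the member of the collagen list whose groups did not overlap, at 21.8, 14.4, 20.5 and 15.3 RPKM and 5.54, 4.61, 5.41 and 6.26 RPKM (log2 fold change 1.54, SE 0.74).

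Among genes off the lists, some had groups that did not overlap. Pdlim1 (chr19:40221173-40271842, minus strand, GRCm38), which encodes a LIM protein of the actin cytoskeleton, had 1, 1, 1 and 3 reads in D, G, I and J, and 381, 770, 346 and 700 reads in L, M, N and O. At 0.0361 to 0.163 RPKM against 14.2 to 40.5 RPKM the groups did not overlap (log2 fold change -4.50, SE 0.84, limma adjusted p = 0.273). The gene passed the filter through the 4 healthy libraries alone, and with 1 to 3 reads in each myeloma-bearing library its log2 fold change depends on the pseudocount (-7.10 with 0.1). It passed the threshold with no trend in the variance (adjusted p = 0.0321) and in both fits of all 38 libraries (1.74e-06 and 2.57e-06). Timm44, of the mitochondrial import motor, had 0, 43, 0 and 7 and 832, 1016, 768 and 301 reads in the same order (log2 fold change -4.32, SE 0.90). In the other direction, Ehf, an epithelial ETS factor gene, had 1492, 644, 1288 and 718 and 0, 132, 0 and 0 reads (log2 fold change 3.66, SE 0.90). Klf5, a Krüppel-like factor gene, had 419, 321, 817 and 27 and 11, 0, 24 and 0 reads (log2 fold change 3.19, SE 0.96). Mylpf, a myosin light chain gene of fast muscle, had 403, 91, 403 and 105 reads in D, G, I and J and 0 in each healthy library, so no fold is given. Lower genes included Rgs10, a regulator of G protein signalling, with 0, 241, 0 and 1 reads in D, G, I and J and 210, 296, 889 and 501 in L, M, N and O. Eed, a subunit of the Polycomb repressive complex, had 3, 8, 234 and 320 and 1443, 1474, 504 and 2472 reads. Casp1, the inflammasome protease gene, had 440, 427, 646 and 32 and 7, 20, 8 and 1 reads, higher in all 4 myeloma-bearing libraries (log2 fold change 3.31, SE 0.96). Timm44, Ehf, Klf5 and Casp1 had few or 0 reads in most libraries of 1 group. They passed the filter mainly through the other group, and their log2 fold changes depend on the pseudocount too.

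Genes of this kind were among the calls of the fits that share their spread over all 38 libraries. There, limma called 24 of 12683 genes (0.189%), 14 of them higher (0.11% of genes) and 10 lower (0.0788%). Voom-limma on the reads called 28 of 13260 (0.211%), 21 higher (0.158%) and 7 lower (0.0528%), and 13 genes were called by both. Of the 39 genes called in any of the fits, 17 were below the filter of the 8-library fit. Of the same 39, 17 had at most 3 reads in every library of 1 group, 10 of them 0 reads in all. The share of such genes over all genes tested was not counted. Ifi27l2a, Pdlim1, Timm44, Ehf and Klf5 were called by both, as were Ube2ql1, Prss35 and Efcab1. Hmbox1 had 193, 496, 744 and 33 reads in D, G, I and J, and 0, 0, 1 and 0 in L, M, N and O, and Tox, which encodes an HMG box factor, 81, 813, 2 and 189 and 0, 0, 0 and 1. Col1a2 was called, like Col2a1, by voom-limma alone, at a log2 fold change of 1.50 (adjusted p = 0.0141). Voom-limma on the 8 libraries alone called 0 of 8664 genes, with 391 at an unadjusted p below 0.05.

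The difference in osteoprogenitors was then set against that in the 2 other bone lining cell types. As an interaction in limma, 0 of 10735 genes differed in their change from stromal progenitors (437, or 4.07%, at an unadjusted p below 0.05) and 0 of 10756 from endothelial cells (516, or 4.8%). Voom-limma on the same libraries called 0 and 4 genes, and the fits of all 38 libraries called 16 and 22 with limma and 16 and 15 with voom-limma. Ifi27l2a was higher in myeloma-bearing mice by 6.35 in osteoprogenitors, 4.59 in stromal progenitors and 1.62 in endothelial cells on the log2 scale. The difference of the changes was 1.76 (SE 1.34, adjusted p = 1) from stromal progenitors and 4.73 (SE 1.16, adjusted p = 0.596) from endothelial cells, whose healthy mean was 389 RPKM. Bst2 differed by 2.08, 3.79 and 1.62 in the same order, and Ifitm3 by 1.05, 0.98 and 0.48. Tnfsf11 was higher by 1.97 in stromal progenitors, where the healthy mean was 0.0041 RPKM, and was listed at 0.0204 and 0 RPKM in endothelial cells. The stromal value rests on myeloma-bearing D and I, at 16.1 and 25.6 RPKM, while E, G and J were at 0, 0.0268 and 0.986 RPKM.

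Npy averaged 2692 and 1913 RPKM in stromal progenitors of healthy and myeloma-bearing mice, a log2 difference of -0.38, and its change in osteoprogenitors differed from that by -4.60 (SE 1.26, adjusted p = 1). Pdlim1 averaged 84.7 and 50.6 RPKM there and 124 and 83.1 RPKM in endothelial cells. Its change in osteoprogenitors differed from these by -3.51 (SE 0.86, adjusted p = 1) and -3.97 (SE 0.84, adjusted p = 0.478), values that depend on the pseudocount too. With a pseudocount of 0.1, Pdlim1 was the 1 gene whose change differed from stromal progenitors at the thresholds. Il11 differed by 1.44 in stromal progenitors, against -3.00 in osteoprogenitors (difference -4.44, SE 1.56, adjusted p = 1).

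**Figure D5:**
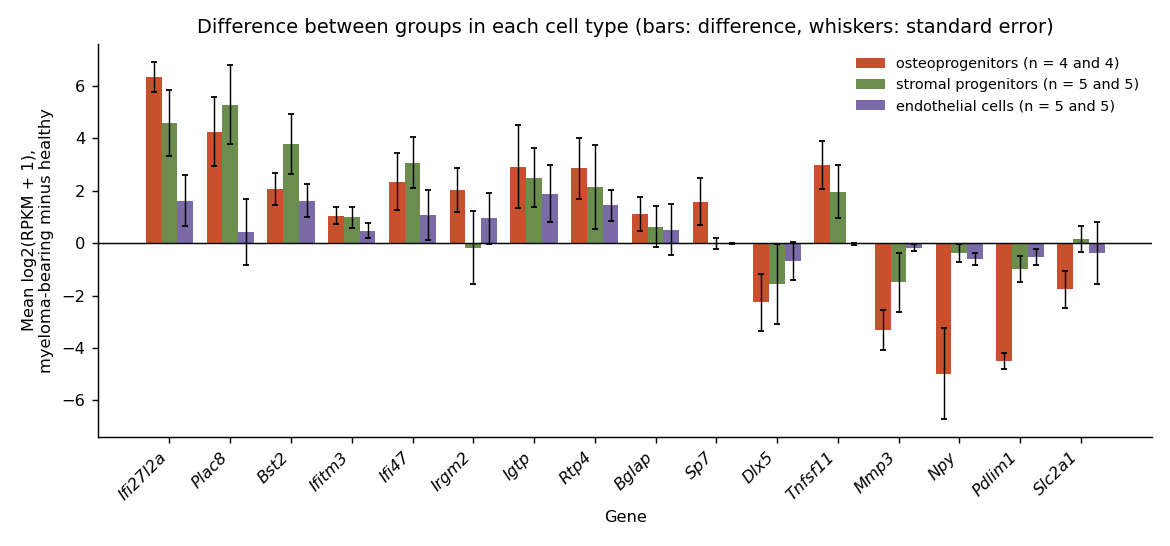
Difference between groups (y axis, mean log2(RPKM + 1) of myeloma-bearing minus healthy libraries) of 16 genes (x axis) in osteoprogenitors (red, n = 4 and 4), stromal progenitors (green, n = 5 and 5) and endothelial cells (purple, n = 5 and 5). Whiskers are the standard error of the difference. Ifi27l2a is 6.35, 4.59 and 1.62 in the 3 cell types, and Pdlim1 -4.50, -0.99 and -0.53.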

How the data were processed

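RNA was measured by RNA-Seq in 38 libraries of 100 sorted cells, made with SmartSeq2 and sequenced as single-end reads, and the 8 osteoprogenitor libraries are described here. The authors aligned reads with STAR 2.4.0 to GRCm38/mm10, counted them with featureCounts (Subread 1.4.5-p1), dropped genes that did not exceed 1 CPM in 4 or more samples, and deposited RPKM values computed with edgeR for 13260 genes. The low values are whole multiples of 1 read, so whole reads were recovered for all 13260 genes, and 99.92% of the 2459 genes shorter than 1500 bases had a length within 0.01 base of a whole number. Because the deposited unit is RPKM, the test was limma 3.58.1 in R 4.3.3 (lmFit, then eBayes with a mean-variance trend). It was run on log2(RPKM + 1), a scale that understates the difference of low genes, over genes that exceeded 1 RPKM in 4 or more of the 8 libraries. A call asked for a log2 fold change of more than 1 either way and a p below 0.1 after Benjamini-Hochberg adjustment. Interactions with stromal progenitors and endothelial cells used 18 libraries each. Single values were compared by an exact two-sided permutation test of the 70 splits (Python 3.11.15, scipy 1.17.1). Depth was 11991647 to 21789966 reads per library, and errors are the spread between 4 libraries a group.

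Groups and letters came from the labels. The members, gene lists and tests were chosen with earlier results of these data known. Named genes were those called in any fit, the 12 largest differences each way among genes with an unadjusted p below 0.05 and a mean above 5 RPKM in a group whose libraries did not overlap, and list members by level or by unadjusted p below 0.05, of which the text gives a part. Alternatives were the filter, the pseudocount, quantile normalisation, array weights, no trend, voom-limma on recovered reads, all 38 libraries in the fit, and each library left out. Promoters came from RefSeq and gene positions from GENCODE vM21. The libraries do not mark strand and counting by default settings does not use it, so overlapping genes on opposite strands, among them those at Mcm7, Irf3, Irf7, Ankrd37, Bmp6, Timp1, Runx2 and Ctnnb1, cannot be told apart.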

Additional observations from a re-analysis of the deposited data

Results flagged for a closer look

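Of 184 groups of 4 libraries, 22 held 1 library that was flagged against the other 3 by Dixon's test at its 95% critical value. The rate of about 1 in 20 at that value holds for normally spread values in groups not picked beforehand. These are RPKM values of genes named from these data, so the 22 are not to be read against that rate. In the following the other 3 libraries were at 0 RPKM, where this test passes at any value, down to a single read. Ifi27l2a was at 0.342 RPKM in healthy M. Irf2 was at 1.39 RPKM in healthy N. Bmpr2 was at 0.45 RPKM in myeloma-bearing G. Ehf was at 2.38 RPKM in healthy M. Efcab1 was at 15.8 RPKM in myeloma-bearing J. Hmbox1 was at 0.0211 RPKM in healthy N. Tox was at 0.0191 RPKM in healthy O.

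In the others, all libraries but 1 lay close together. For Ifih1, Il11, Rgs10, Asns and healthy Igtp, the other 3 were below 1 RPKM. Irf7 was at 0 RPKM in myeloma-bearing D, against 15.9 to 24.1 RPKM in the other 3. Irf1 was at 42.1 RPKM in myeloma-bearing D, against 92.9 to 102 RPKM in the other 3. Ifih1 was at 12.8 RPKM in myeloma-bearing G, against 0 to 0.0456 RPKM in the other 3. Igtp was at 2.24 RPKM in myeloma-bearing D, against 32.8 to 48.4 RPKM in the other 3. Igtp was at 40.7 RPKM in healthy O, against 0 to 0.465 RPKM in the other 3. Sp7 was at 30.6 RPKM in healthy O, against 1.51 to 2.67 RPKM in the other 3. Il11 was at 2.33 RPKM in myeloma-bearing I, against 0 to 0.0839 RPKM in the other 3. Mmp3 was at 109 RPKM in myeloma-bearing D, against 20 to 22.1 RPKM in the other 3. Timp1 was at 345 RPKM in myeloma-bearing J, against 664 to 750.3 RPKM in the other 3. Wif1 was at 1519 RPKM in healthy N, against 885 to 952 RPKM in the other 3. Asns was at 29.6 RPKM in myeloma-bearing J, against 0.0564 to 0.256 RPKM in the other 3. Epas1 was at 15.1 RPKM in myeloma-bearing G, against 36.2 to 40.9 RPKM in the other 3. Eed was at 15.1 RPKM in healthy N, against 54.9 to 65.3 RPKM in the other 3. Prss35 was at 4.46 RPKM in myeloma-bearing D, against 35.3 to 39.3 RPKM in the other 3. Rgs10 was at 15 RPKM in myeloma-bearing G, against 0 to 0.0932 RPKM in the other 3.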

How the results depend on the processing

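The count of 1 called gene became 0 with no filter (540 genes at an unadjusted p below 0.05), 2 with no trend (Ifi27l2a and Pdlim1), 2 with array weights (Ifi27l2a and Mmp3), 0 with voom-limma on the 8 libraries, 24 and 28 in the limma and voom-limma fits of all 38 libraries, 422 at an unadjusted p below 0.05, and 0 to 2 with single libraries left out. It was 0 without library G or J and 2 without D. The count of genes whose change differed from stromal progenitors, 0, became 16 and 16 in the limma and voom-limma fits of all 38 libraries, 1 with a pseudocount of 0.1, and 0 to 1 with single libraries left out, where library O gave the 1. That for endothelial cells, 0, became 4 with no filter, 4 with voom-limma on the libraries compared, 22 and 15 in the fits of all 38 libraries and 2 with a pseudocount of 0.1. The cause was not tested. The difference in the Tnfsf11 to Tnfrsf11b ratio in osteoprogenitors was 3.16 to 4.61 with single libraries left out (exact permutation p = 0.0571, the smallest that 3 against 4 allows). Of 1450 values of single genes under alternatives, 1404 kept their direction and side of the threshold and 19 turned. B2m was -0.28, Dkk1 -0.0128, Id1 -0.0201 and Id3 -0.0274 in voom-limma on all 38 libraries, Dkk1 was -0.16 in voom-limma on the 8, and Smad7 was 0.36 with array weights and 0.0657 after quantile normalisation. With single libraries left out, Dkk1 ran over -0.72 to 0.55, Id1 -0.0649 to 0.42, Id2 -0.20 to 0.0101, Id3 -0.0316 to 0.26, Smad7 -0.59 to 0.64, Spp1 -0.77 to 0.00588, Mmp13 -0.46 to 2.28 and Bmpr1a -0.93 to 0.032. No paired analysis was possible for myeloma-bearing against healthy mice because their letters do not overlap. Letters shared across cell types are not stated to mark a mouse, and no correlation of deviations between same-lettered libraries was over 0.1 (0.00155 to 0.0875 with stromal and -0.0133 to 0.0819 with endothelial libraries), though 4 of 8 and 5 of 8 libraries correlated best with their own letter. They were not treated as pairs, and the letter as a replicate block called 0 and 0 genes in the 2 interactions (505 and 617 at an unadjusted p below 0.05). Reads that were all or none within a group, in 40.5% of the genes tested, limit the values of single genes.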

Other observations

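Some further named genes did not pass the adjusted threshold and are given as single genes. Stard4, a sterol carrier gene, was at 0.694, 0.127, 0 and 5.38 RPKM in D, G, I and J, and at 18.5, 15, 8.6 and 19.3 RPKM in L, M, N and O, and the groups did not overlap (log2 fold change -3.07, SE 0.93). Hmgcs1, of the mevalonate pathway, was at 0.451, 17.9, 109.8 and 27.9 and 76.1, 88.6, 33.8 and 68.1 RPKM (log2 fold change -1.89, SE 1.00), with library I above all healthy libraries. Sqle, which encodes squalene epoxidase, was at 0.144, 7.58, 14 and 1.07 and 21.7, 35.4, 18 and 4.63 RPKM (log2 fold change -2.05, SE 1.03). Hmgcs1 and Sqle belong to the adipogenic and lipid list, of whose 21 tested members 0 had an unadjusted p below 0.05.

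Il18, whose product is cut by caspase 1, was at 102, 35.8, 42.3 and 7.91 RPKM in D, G, I and J and 0, 45.4, 31.1 and 0 RPKM in L, M, N and O (log2 fold change 2.49, SE 1.27). Adipoq, the adiponectin gene of fat cells, was read in every library, at 156, 445, 495 and 292 and 53.3, 0.45, 700.2 and 104 RPKM (log2 fold change 2.69, SE 1.27), and both genes overlapped between the groups.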
